A study of Mus musculus with 8 samples.

Results

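The 53 genes described here encode proteins of G2 phase and mitosis, from the cyclins that open mitosis to the proteins that cut the dividing cell in 2. They were taken by name, and all 53 were among the 10720 genes of the table. The cells were hematopoietic stem cells (HSCs), which were sorted from the bone marrow of adult C57BL/6 mice as LSK cells (lineage-negative, Sca1-positive, c-Kit-positive) with the surface phenotype CD150+CD34-CD48- and picked by hand. Cells labelled WT came from Mx1-cre- Med23 L/L mice and KO-labelled cells from Mx1-cre+ Med23 L/L mice (Med23-/- in the labels). Med23 is a subunit of Mediator, the complex that links transcription factors to RNA polymerase II. Per the study's methods, poly(I:C) was injected 4 times to induce the cre, whose Mx1 promoter responds to interferon in many tissues. Control littermates shared the floxed alleles, and whether the donors of these WT-labelled cells were injected as well was not given in the sources used here. The number of mice per library and their exact age were not given in the sources used here.

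HSCs are mostly quiescent, so that few of them are expected to hold the messenger RNA of mitosis at any time. Transcription of this program peaks late in the cycle: cyclin B and its kinase Cdk1 drive entry, condensins and topoisomerase II shape chromosomes, kinetochores attach them to the spindle, the spindle assembly checkpoint waits for attachment, and the anaphase-promoting complex then destroys cyclin B so that cytokinesis can follow. Many promoters of these genes carry a cell cycle genes homology region (CHR) and CCAAT boxes, through which the DREAM complex, B-Myb and FoxM1 restrict transcription to G2 and mitosis.

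Each cell's RNA was copied from its 3' end from an oligo-dT primer carrying the barcode of the cell and a molecular tag (UMI, unique molecular identifier), so that amplified copies of a molecule counted as 1. The labels named 8 libraries, 4 per genotype, but the table gave only genotype and cell number. All cells of a label were therefore summed into 1 pool, no difference had a replicate check, and no test was made. The pools held 259 cells and 21475782 UMIs (WT) and 234 cells and 16180546 UMIs (KO), with medians of 59649 and 50281 UMIs per cell. CPM is the number of UMIs per 1000000 UMIs of the pool, and log2 ratios compare the KO-labelled with the WT-labelled CPM, so that negative values mean less in the KO-labelled pool. Intervals are exact, at 95%, and cover counting error only, not the spread between mice or libraries. A gene is counted as lower or higher here when its ratio passed 1.5 fold.

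The labels were first checked against the RNA. Med23 had 122 WT-labelled and 117 KO-labelled UMIs, that is, its log2 ratio of 0.35 (-0.03 to 0.73) went against the label. UMIs of a 3' tag need not come from the deleted part of the gene, so the tag may check nothing, and groups are given by their labels throughout. All 11 HSC marker genes listed were in the table, but Slamf1, which encodes CD150, had a UMI in 24.3% of WT-labelled cells and 5.13% labelled KO when each cell was thinned to 20000 UMIs. At this depth Cd34 RNA was found in 71.4% and 87.6% of cells. Transcripts of oocytes, which HSCs do not express, were also present: 70 WT-labelled cells and 2 labelled KO had over 1000 CPM of an oocyte list of 27 genes. These cells, called oocyte-transcript cells below, held 27.1% of all UMIs labelled WT and 0.316% of those labelled KO, so values without them are given for the members that crossed 1.5 fold or moved most. Leaving them out does not remove all such transcripts: 209 WT-labelled cells and 85 labelled KO had over 100 CPM of the list. The medians per cell were 313 and 50.4 CPM, and a limit of 100 CPM kept 50 and 149 cells. No 2 cells had identical values.

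Promoter windows are shown first, as a description, and their part in the ratios was not tested. RefSeq windows of GRCm38.p6, from 250 bases before to 50 after the transcription start, were at hand for 46 of the 53 members. A CHR, searched as TTTGAA or TTCAAA so as to cover both strands, was in the windows of 36 members (78.3%) and of 20.2% of all 27025 genes with windows. A CCAAT box, searched as CCAAT or ATTGG, was in 37 members (80.4%) and 41.1% of all genes, and both motifs were in 32 members (69.6%) and 7.97% of all genes. Neither motif contains the other, though matches may overlap. Ccnb1, Cks2, Birc5, Mad2l1, Nuf2 and Tacc3 were among the 10 members with windows but no such CHR, each of which was lower. Members with a CHR included lower ones and others, such as Top2a and Hmgb2, that were not. The windows below belong to the members with the most UMIs among those with a CHR that were lower with and without their top cell: Cks1b at chr3:89418242-89418541, Cenpf at chr1:189688037-189688336 and Ccnb2 at chr9:70421505-70421804, all on the minus strand. They are printed 5' to 3' along the gene with the CHR and CCAAT letters in capitals. Without oocyte-transcript cells, Cks1b was at -0.52 and Cenpf at -0.02, within 1.5 fold, and Ccnb2 was at -0.99. In Cenpf and Ccnb2 a CHR lies just after the start, and in Cks1b one begins 17 bases before it.
Cks1b: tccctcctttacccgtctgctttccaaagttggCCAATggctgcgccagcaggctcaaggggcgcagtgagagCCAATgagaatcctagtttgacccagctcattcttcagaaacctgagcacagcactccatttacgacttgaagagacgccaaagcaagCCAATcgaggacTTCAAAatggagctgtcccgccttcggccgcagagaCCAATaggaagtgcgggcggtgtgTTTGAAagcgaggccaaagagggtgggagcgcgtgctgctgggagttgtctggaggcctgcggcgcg
Cenpf: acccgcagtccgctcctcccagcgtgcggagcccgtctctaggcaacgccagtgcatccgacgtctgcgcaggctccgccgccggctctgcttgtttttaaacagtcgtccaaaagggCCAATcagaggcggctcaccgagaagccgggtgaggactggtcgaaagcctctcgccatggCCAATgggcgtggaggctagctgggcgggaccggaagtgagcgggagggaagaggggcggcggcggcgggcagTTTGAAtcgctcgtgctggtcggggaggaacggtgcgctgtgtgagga
Ccnb2: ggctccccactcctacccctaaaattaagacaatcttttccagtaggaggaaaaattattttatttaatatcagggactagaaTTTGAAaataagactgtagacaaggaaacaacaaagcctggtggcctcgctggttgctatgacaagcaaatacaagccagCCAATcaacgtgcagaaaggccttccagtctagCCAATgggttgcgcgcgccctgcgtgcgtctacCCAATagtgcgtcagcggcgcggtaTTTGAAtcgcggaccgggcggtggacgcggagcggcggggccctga

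As a whole, the mitotic genes were lower in the KO-labelled pool. Their summed UMIs were 102302 of the WT-labelled pool and 56251 of the KO-labelled pool, that is 4764 and 3476 CPM, a log2 ratio of -0.45 (-0.47 to -0.44). Of the 53 members, 44 lay below 0 and 9 above, with a median log2 ratio of -0.62, beside 0.02 over all genes. Past 1.5 fold, 28 members were lower, beside a background of 15.5% of all genes, and 0 members were higher, beside a background of 17.2%. Past 2 fold, 14 members were lower (7.94% of all genes) and 0 were higher (6.98% of all genes). The 28 members are 52.8% of the list. By contrast, 32 genes of DNA replication (S phase) had a median of -0.09, with 2 genes lower and 1 higher past the same fold.

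Fewer dividing cells and less RNA per dividing cell cannot be told apart in a sum, and the cells are therefore described after the steps. When the top cell of a gene, the one richest in its UMIs, was left out of each pool, the 28 members stayed past 1.5 fold (14.5% of all genes were lower with and without that cell) and 6 others joined them, 34 members in all (17.1% of all genes). That cell held the larger share in the KO-labelled pool for 50 of 53 members, and leaving it out lowered 49 ratios. These counts therefore do not check the direction. Without the oocyte-transcript cells, 25 members were lower (14.2% of all genes) and 2 were higher (18.8% of all genes). In all 12 ways of summing and scaling that were tried, 39 members stayed below 0, beside 24.7% of all genes, and 16 stayed past 1.5 fold lower, beside 5.02% of all genes. No member stayed past 1.5 fold higher, beside 6.69% of all genes. The 16 lower members were Ccnb1, Ccnb2, Cks2, Cdca3, Nuf2, Mad2l1, Ttk, Birc5, Cdca8, Aurka, Kif2c, Nusap1, Ckap2l, Tacc3, Ube2c and Kif23.

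**Figure D1:**
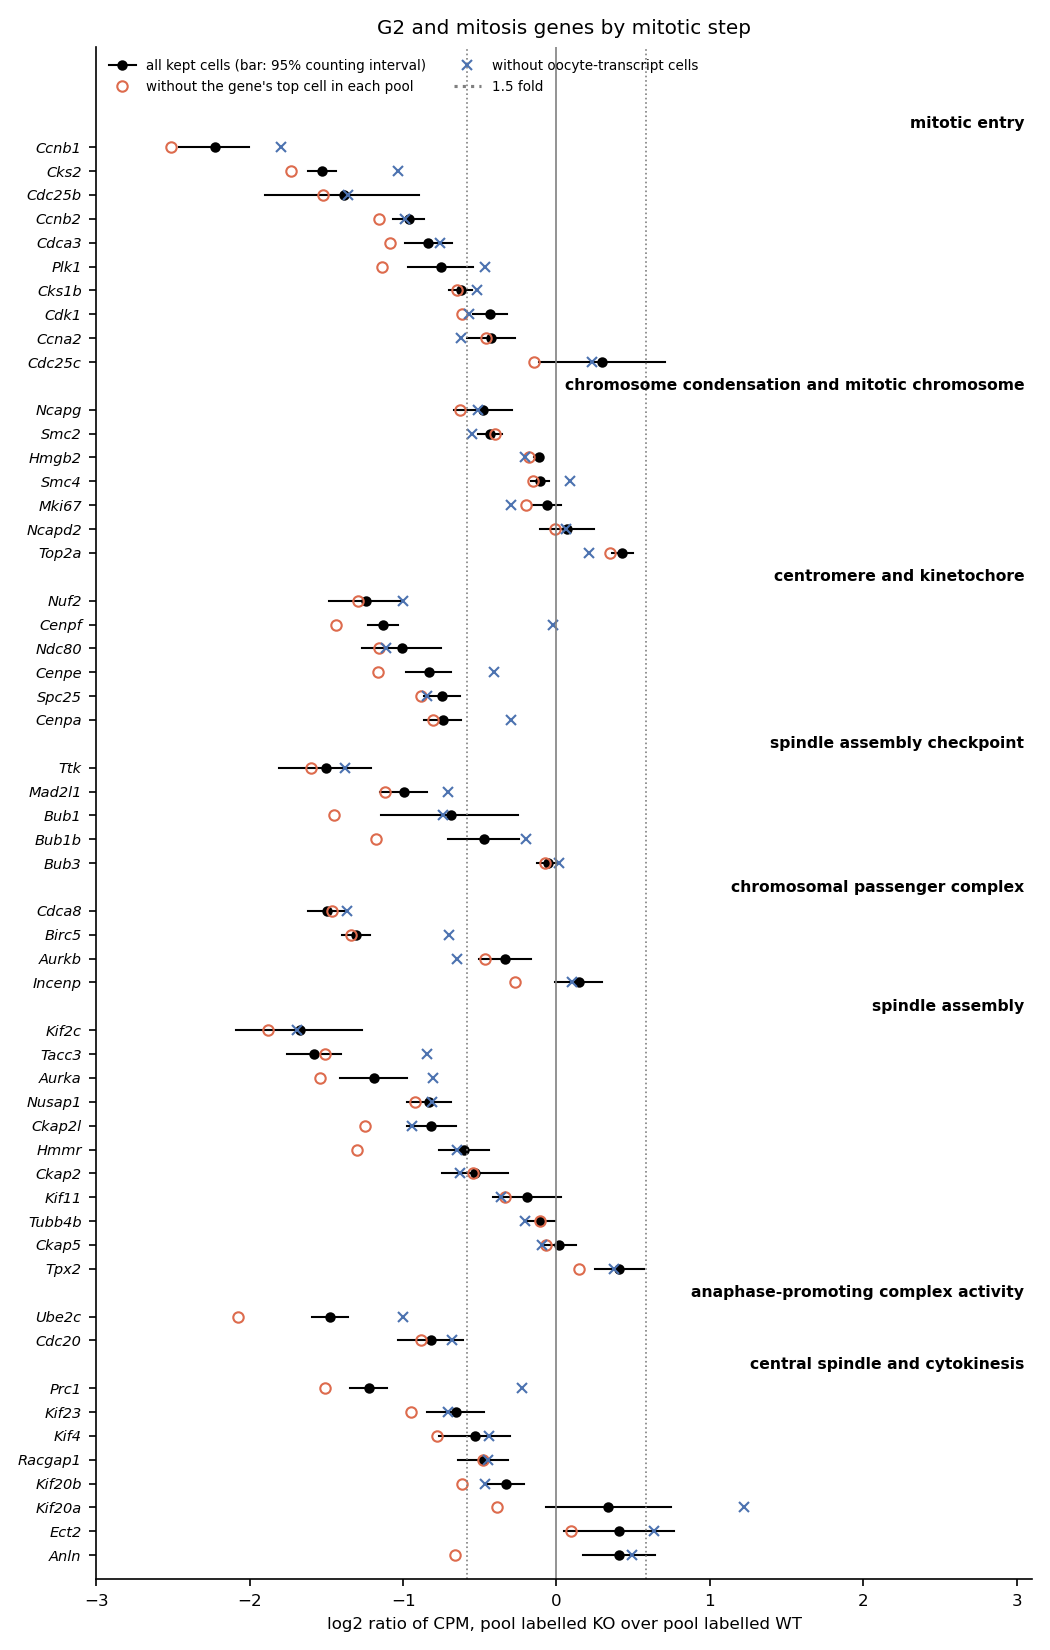
Log2 ratio of CPM (KO-labelled pool over WT-labelled pool, horizontal axis) for the 53 members by mitotic step, with all kept cells (filled circles, bars for 95% counting intervals), without the top cell of the gene in each pool (open circles) and without oocyte-transcript cells (crosses). Dotted lines mark 1.5 fold; Ccnb1 is the lowest at -2.23, and open circles lie left of the filled ones for most members.

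Mitotic entry held the lowest member of all. Ccnb1, which encodes cyclin B1, the activator of Cdk1, had 1157 UMIs in 91 WT-labelled cells and 186 UMIs in 26 KO-labelled cells. This was 53.9 and 11.5 CPM, a log2 ratio of -2.23 (-2.46 to -2.00). The value was -2.51 without the top cells and -1.79 without oocyte-transcript cells; Ccnb1 was past 2 fold lower in each case. Ccnb2, the other mitotic B cyclin here, had 2704 and 1044 UMIs, for a log2 ratio of -0.96 (-1.07 to -0.86). Cks2, a small subunit that binds Cdk1, had 4796 and 1253 UMIs, the most of this step labelled WT, and a log2 ratio of -1.53 (-1.62 to -1.44), or -1.03 without oocyte-transcript cells. Its paralog Cks1b had 4396 and 2151 UMIs, and its log2 ratio was -0.62 (-0.70 to -0.55), which became -0.52 without oocyte-transcript cells.

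Cdk1 itself differed less than its cyclin B1: 1895 and 1058 UMIs gave a log2 ratio of -0.43 (-0.54 to -0.32), and -0.62 without the top cells. Ccna2, the cyclin of S and G2 phase, was at -0.43 (-0.59 to -0.27), and at -0.62 without oocyte-transcript cells. Plk1, a kinase that acts from entry to cytokinesis, was at -0.75 (-0.97 to -0.54), and at -0.46 without oocyte-transcript cells, which held 40.4% of its UMIs labelled WT. Cdca3, which promotes the loss of the Cdk1 inhibitor Wee1, was at -0.83, and the phosphatase gene Cdc25b was at -1.39 on 156 and 45 UMIs. Cdc25c, a phosphatase that activates Cdk1, was the only member of the step above 0 (0.30, -0.11 to 0.70). It rested on 107 UMIs in 12 cells and 99 UMIs in 10 cells, of which a single KO-labelled cell held 53, and its log2 ratio without the top cells was -0.15. Of the 10 genes of the step, 7 were lower, with a median of -0.79. The background of 15.5% of all genes lower stands beside the count of this and of each later step.

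The genes of chromosome condensation lay closest to 0 of the steps, with 0 of 7 lower and a median of -0.11. Top2a, topoisomerase II alpha, had 3452 and 3498 UMIs in 124 and 132 cells, 161 and 216 CPM, the highest log2 ratio of any member at 0.43 (0.36 to 0.50). It was still above 0 without the top cells (0.35), without oocyte-transcript cells (0.21) and without the 2 cells of each pool richest in mitotic UMIs (0.11), but at -0.22 when every cell with over 100 CPM of the oocyte list was left out. Hmgb2, a chromatin protein and the member with the most UMIs, had 22874 and 15921 UMIs, and its log2 ratio was -0.11 (-0.14 to -0.09). It was found in 250 of 259 and 222 of 234 cells, so that most of the cells with it had under 20 members at equal depth. The proliferation marker Mki67 was at -0.06 (-0.16 to 0.03), on 2154 and 1553 UMIs, and at -0.30 without oocyte-transcript cells. It was past 1.5 fold lower without the 2 richest cells of each pool (-0.65), without its top 5 cells (-0.77) and at the limit of 100 CPM (-0.69).

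Among the condensins, Smc4 (6139 and 4293 UMIs) was at -0.11 and moved to 0.09 without oocyte-transcript cells. Ncapd2 was at 0.07 (-0.11 to 0.25) and -0.01 without its top cells. Ncapg was the lowest of the step at -0.48 (-0.67 to -0.29), and -0.63 without its top cells, and Smc2 was at -0.43. With all kept cells, Top2a and Mki67 thus lay within 1.5 fold, whereas the Ccnb1 CPM of the KO-labelled pool was 0.213 times that of the WT-labelled pool.

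In the centromere and kinetochore, 6 of 6 genes were lower, with a median of -0.92. Nuf2, a subunit of the Ndc80 complex that grips microtubules, was the lowest, with 622 and 198 UMIs, and its log2 ratio was -1.24 (-1.48 to -1.01). Its partners Ndc80 and Spc25 were at -1.01 (-1.27 to -0.75) and -0.75 (-0.86 to -0.63). These 3 were also past 1.5 fold without oocyte-transcript cells, at -0.998, -1.11 and -0.85. At the limit of 100 CPM of oocyte genes they were at -1.19, -1.06 and -0.22, so Spc25 was not.

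The other 3 genes of this step came within 1.5 fold without oocyte-transcript cells. Cenpf, a kinetochore protein of G2 and mitosis and the member of the step with the most UMIs, had 3422 and 1178 UMIs, and its log2 ratio was -1.13 (-1.23 to -1.03). Oocyte-transcript cells held 66.1% of its UMIs labelled WT, and without them its log2 ratio was -0.02. Cenpe, a kinetochore motor, went from -0.83 to -0.41, and Cenpa, the centromeric histone and the highest of the step, from -0.74 to -0.30. Without oocyte-transcript cells, 3 of the 6 genes were lower, beside 14.2% of all genes.

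The spindle assembly checkpoint had 3 of 5 genes lower and a median of -0.69. Ttk, the kinase known as Mps1 that starts the checkpoint signal, was the lowest, with 448 and 119 UMIs, and its log2 ratio was -1.50 (-1.81 to -1.21). Mad2l1, which encodes Mad2, had 1311 and 495 UMIs and was at -0.997 (-1.15 to -0.85), or -0.71 without oocyte-transcript cells. Bub1 was at -0.69 on only 137 and 64 UMIs, with 33 of the latter in 1 cell. Bub1b, which encodes BubR1, was at -0.47 (-0.71 to -0.25), but 47.3% of its UMIs labelled KO lay in 1 cell, and it was at -1.18 without the top cells and -0.20 without oocyte-transcript cells. Bub3, the gene of the step with the most UMIs and the highest ratio, was at -0.06 (-0.13 to 0.01), and at 0.02 without oocyte-transcript cells. It was found in 202 and 167 cells, which reach well beyond the cells that held many mitotic transcripts.

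The chromosomal passenger complex, which corrects faulty attachments, was split. Cdca8, encoding borealin, had 2377 and 636 UMIs, and its log2 ratio was -1.49 (-1.62 to -1.37), the lowest of the step. Birc5, encoding survivin and with the most UMIs of the step, had 4120 and 1256 UMIs and was at -1.31 (-1.40 to -1.21), or -0.70 without oocyte-transcript cells, which held 51.8% of its UMIs labelled WT. The kinase gene Aurkb was at -0.34 (-0.51 to -0.16) and at -0.65 without oocyte-transcript cells, which held only 9.24% of its UMIs. The scaffold gene Incenp was the highest at 0.14 (-0.01 to 0.30), with 203 of its 653 UMIs labelled KO in 1 cell, and was at -0.27 without the top cells.

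Of the 11 spindle assembly genes, 6 were lower, with a median of -0.60. Kif2c, the microtubule depolymerase known as MCAK, was the lowest at -1.67 (-2.09 to -1.27), on 266 and 63 UMIs. Tacc3, a stabilizer of spindle fibers, was at -1.58 (-1.75 to -1.41), and at -0.84 without oocyte-transcript cells, which held 56.1% of its UMIs labelled WT. Aurka, the kinase of the spindle poles, was at -1.19 (-1.41 to -0.97), or -0.80 without oocyte-transcript cells, whereas Tpx2, which activates it, was at 0.41 (0.25 to 0.57). Tpx2 had 649 UMIs in each pool, 172 of those labelled KO in 1 cell, and its log2 ratio was 0.15 without the top cells and -0.49 without the 2 richest cells of each pool. Hmmr moved from -0.60 to -1.30 without the top cells, since 49.0% of its UMIs labelled KO lay in 1 cell. Ckap5 was at 0.02 (-0.09 to 0.12), and at -0.07 and -0.10 without the top cells and without oocyte-transcript cells. Ckap2 was at -0.53, and at -0.63 without oocyte-transcript cells. Nusap1 and Ckap2l were at -0.83 and -0.82, and the spindle motor gene Kif11 at -0.19. Tubb4b, a tubulin gene with the most UMIs of the step, was at -0.11 and was found in 195 and 176 cells.

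Both genes that act with the anaphase-promoting complex were lower. Ube2c, the ubiquitin-conjugating enzyme of the complex, had 2735 and 741 UMIs in 107 and 45 cells, a log2 ratio of -1.48 (-1.59 to -1.36). A single KO-labelled cell held 329 of its 741 UMIs, and without the top cells the log2 ratio was -2.07. Oocyte-transcript cells held 47.5% of its UMIs labelled WT, and without them it was at -0.9998 (-1.13 to -0.87). Cdc20, its activator, had 615 and 263 UMIs and was at -0.82 (-1.03 to -0.61).

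The last step, the central spindle and cytokinesis, had 2 of 8 genes lower, beside 15.5% of all genes. It had a median of -0.41 and 3 of the 9 members above 0. Prc1, which bundles the microtubules of the central spindle and had the most UMIs of the step, had 2243 and 723 UMIs and the lowest log2 ratio, -1.22 (-1.35 to -1.10). As with Cenpf, 63.4% of its UMIs labelled WT lay in oocyte-transcript cells, and it was at -0.22 without them. The kinesin gene Kif23 was at -0.66 (-0.85 to -0.47) and at -0.71 without oocyte-transcript cells. Racgap1, its partner in centralspindlin, was at -0.48.

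Anln, encoding the contractile ring protein anillin, showed how far 1 cell can go. It had 298 UMIs in each pool, in 34 WT-labelled cells and 16 labelled KO, and a log2 ratio of 0.41 (0.17 to 0.64). A single KO-labelled cell held 190 of them (63.8%), and without the top cells the log2 ratio was -0.66. Kif20a had 105 and 100 UMIs, and its log2 ratio was 0.34 (-0.07 to 0.75). The value was -0.39 without the top cells and 1.22 without oocyte-transcript cells, so that its direction depended on which cells were counted. Ect2, which activates RhoA at the cleavage site, had 131 UMIs in each pool and a log2 ratio of 0.41 (0.05 to 0.77), 0.09 without the top cells and 0.63 without oocyte-transcript cells. It was the only member above 0 in all 12 ways of summing and scaling, beside 29.1% of all genes. Kif20b and Kif4, at -0.33 and -0.53, were at -0.61 and -0.78 without the top cells.

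Summed UMIs put the same 4 steps lowest. The log2 ratio was -1.33 (-1.43 to -1.23) for the anaphase-promoting complex, -1.02 for the passenger complex, -0.93 for the kinetochore and -0.92 for mitotic entry. It was -0.57 for cytokinesis, -0.45 for spindle assembly, -0.32 for the checkpoint and -0.08 (-0.11 to -0.06) for condensation. Without oocyte-transcript cells the sum of each step was below 0, between -0.92 (anaphase-promoting complex) and -0.16 (condensation). The kinetochore moved most, from -0.93 to -0.48.

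Detection across cells was then compared at an equal depth, since KO-labelled cells were shallower. After each cell was thinned to 20000 UMIs, the median member was found in 18.9% of WT-labelled cells and 11.5% labelled KO, beside 19.3% and 18.8% for the median of all genes. The share was lower in the KO-labelled pool for 44 members, beside 53.2% of all genes, and the intervals of 13 members did not meet, all of them lower, beside a background of 4.34% of all genes apart and lower and 3.16% apart and higher. Ccnb1 had a UMI in 20.8% (16.1 to 26.3) of WT-labelled and 6.84% (3.96 to 10.9) of KO-labelled cells, Ube2c in 23.6% (18.5 to 29.2) and 8.12% (4.96 to 12.4), and Cks2 in 61.0% (54.8 to 67.0) and 35.9% (29.8 to 42.4). Cenpf was found in 36.3% and 16.2%, and in 25.4% of the WT-labelled cells that were not oocyte-transcript cells. Top2a went the other way, with 32.4% (26.8 to 38.5) and 40.2% (33.8 to 46.8).

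A share of cells with a UMI also counts RNA that is not the cell's own. Zp3, an egg coat gene that blood cells lack, was found in 44.8% (38.6 to 51.1) of WT-labelled cells and 7.26% (4.29 to 11.4) labelled KO at the same depth. Of the 53 members, 46 were at or below this share in the WT-labelled pool and 15 in the KO-labelled pool, and those shares are not read as expression by so many cells.

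**Figure D2:**
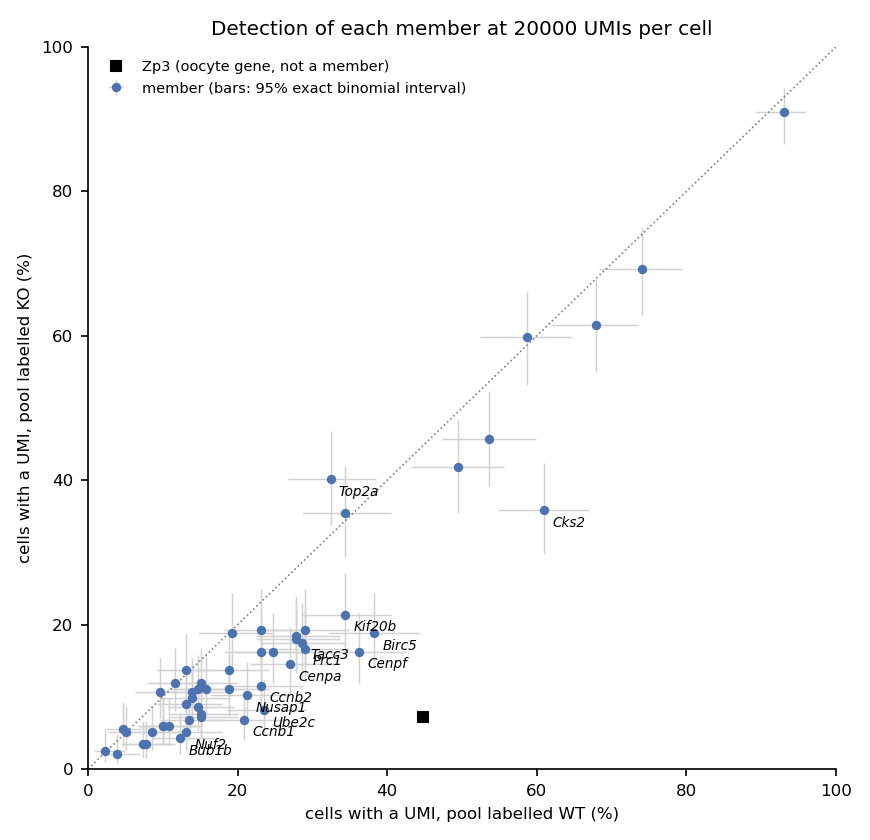
Share of cells with a UMI of each member at 20000 UMIs per cell, WT-labelled pool (horizontal axis, %) against KO-labelled pool (vertical axis, %), with exact 95% binomial intervals. Of the 53 members, 44 lie below the dotted line of equal shares; the 13 with separate intervals and Top2a are named, and the square is Zp3.

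The mitotic transcripts were concentrated in few cells of either label. Ranked by their mitotic UMIs, the top 5% of cells held 49.3% of them in the WT-labelled pool (13 cells) and 56.9% in the KO-labelled pool (12 cells). The top 5% by all UMIs held 18.7% and 20.6% of all UMIs, and the top 5% by S phase UMIs held 31.7% and 38.3% of those. At an equal depth of 20000 UMIs the mitotic shares were 31.6% and 40.1%. It took 14 WT-labelled cells and 9 labelled KO to reach 50% of all mitotic UMIs. Without oocyte-transcript cells these numbers were 10 of 189 and 9 of 232 cells, and the top 5% held 49.5% and 57.0%. The WT-labelled pool was itself smaller there (189 cells, from 259), so the numbers of cells are not compared. The shares of the top 5% hardly moved.

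**Figure D3:**
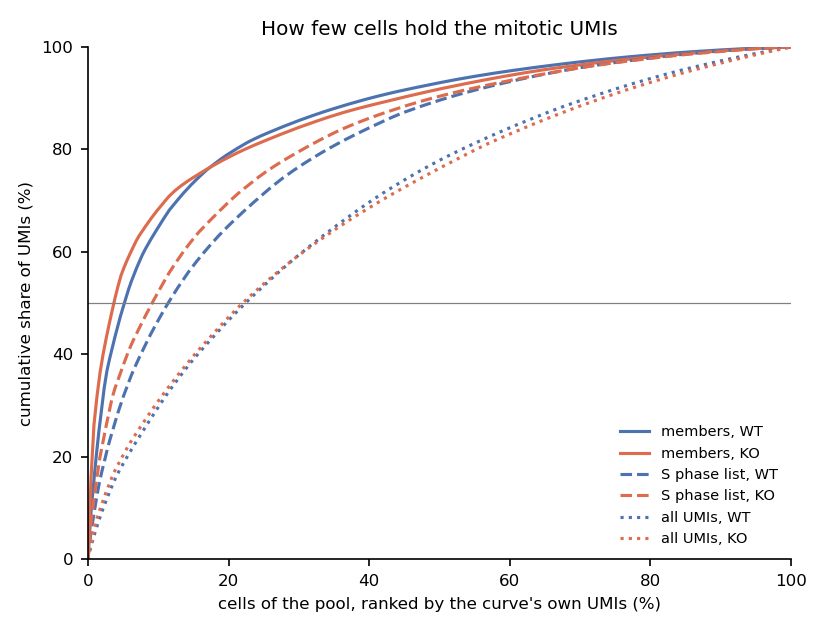
Cumulative share of UMIs (vertical axis, %) against the share of cells of each pool, ranked by the UMIs of the curve itself (horizontal axis, %), for the 53 members, the S phase list and all UMIs. The member curves cross the line at 50% after 14 of 259 WT-labelled cells and 9 of 234 KO-labelled cells.

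Gene by gene, with all kept cells, the top cell of a member held a median of 13.4% of its UMIs labelled WT and 23.4% labelled KO, beside 10.7% and 12.0% over all genes. This share was larger in the KO-labelled pool for 50 of 53 members, beside a background of 61.5% of all genes. The 3 exceptions were Cdca8, Smc2 and Tacc3. For the median member, 7 cells (WT) and 4 cells (KO) held 50% of its UMIs, beside 10 and 8 cells for the median gene.

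The KO-labelled pool had 2 cells that were, between them, the top cell of most members. The first held 8850 mitotic UMIs, 15.7% of its pool's, with 1.49% of its pool's UMIs, and had UMIs of 51 of the 53 members. It was the top cell of 26 members, among them Anln, Bub1, Bub1b, Hmmr, Ube2c and Ccnb1. The second held 5924 mitotic UMIs (10.5%), had UMIs of 45 members and was the top cell of 15. The richest WT-labelled cell held 8.56% of its pool's mitotic UMIs (12.5% without oocyte-transcript cells) and was the top cell of 16 members.

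The pair of KO-labelled cells shared part of the program and differed in the rest. Mki67 (353 and 365 UMIs), Top2a (522 and 554) and Tpx2 (151 and 172) were near equal in the first and the second. Ube2c had 329 UMIs in the first and 0 in the second, Cenpa had 175 and 0, Cenpe had 169 and 0, and Ccnb1 had 56 and 0. Bub1b, with 115 and 0 UMIs, and Cdca3, with 174 and 0, showed the same. The second cell thus had no UMI of cyclin B1, of the centromeric histone or of Ube2c. It still held transcripts of all steps, among them Ccnb2 (54 UMIs), Spc25 (143), Mad2l1 (86), Birc5 (214), Cdc20 (16) and Prc1 (169). Its S phase list was at 8229 CPM beside 2138 CPM in the first. Anln (190 and 35) and Hmmr (223 and 53) were richer in the first, while Incenp (97 and 203), Cenpf (233 and 352) and Kif20a (0 and 56) were richer in the second.

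Both cells were deep, with 241337 and 237217 UMIs beside the pool's median of 50281, and had 24.9 and 8.43 CPM of oocyte genes. The richest WT-labelled cell had 291219 UMIs. Without the 2 richest cells of each pool, the log2 ratio of all mitotic UMIs was -0.67 (-0.68 to -0.65), the median member was at -0.97, and 43 members were lower, beside 15.8% of all genes. The difference between the labels was thus larger without these cells than with them. These cells held 14.4% of the mitotic UMIs labelled WT and 26.3% of those labelled KO. Leaving them out therefore lowers the ratio of the sum by itself.

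**Figure D4:**
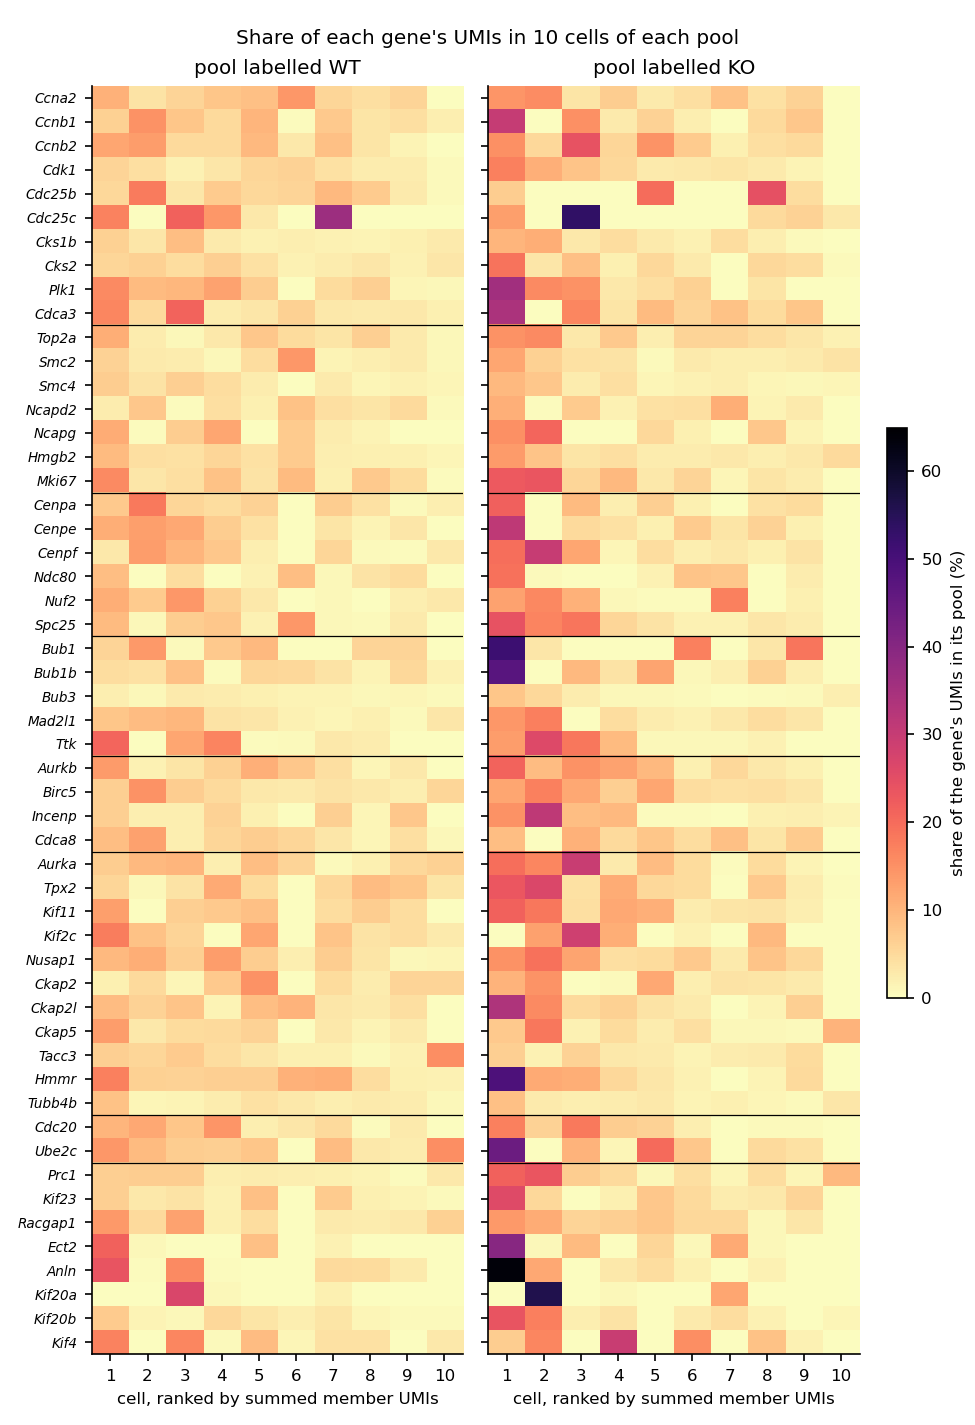
Share of each member's UMIs (color, %) in the 10 cells of each pool with the most mitotic UMIs, left for the WT-labelled pool and right for the KO-labelled pool, with lines between mitotic steps. The first 2 columns of the KO-labelled pool are darkest, up to 63.8% for Anln; some genes are dark in both columns and others in the first or the second alone.

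The number of members per cell gives the same picture without weight on depth. At 20000 UMIs, WT-labelled cells had UMIs of a median of 10 members (quartiles 7 and 15) and KO-labelled cells of 7 (6 and 10). Without oocyte-transcript cells these medians were 9 (6 and 12) and 7 (6 and 10), and the oocyte-transcript WT-labelled cells alone had 12.5. At least 20 members were found in 40 of 259 WT-labelled cells (15.4%, 11.3 to 20.4) and in 17 of 234 labelled KO (7.26%, 4.29 to 11.4), with intervals that overlap slightly. Without oocyte-transcript cells these shares were 15.3% (29 of 189) and 7.33%, and 11 of the 70 oocyte-transcript WT-labelled cells were among the 40. Unthinned, 33.2% and 11.1% of cells had 20 members.

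**Figure D5:**
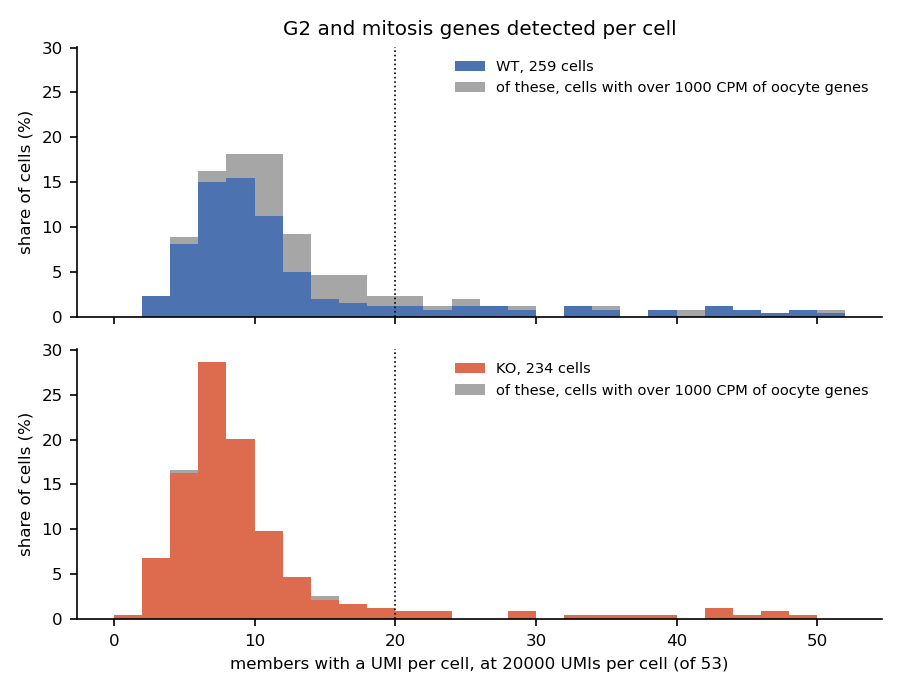
Share of cells (vertical axis, %) by the number of the 53 members with a UMI at 20000 UMIs per cell (horizontal axis, bins of 2 genes), 259 WT-labelled cells above and 234 labelled KO below, with oocyte-transcript cells in grey. To the right of the dotted line at 20 members lie 15.4% of WT-labelled cells and 7.26% of KO-labelled cells.

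The cells with at least 20 members held 69.0% of the mitotic UMIs labelled WT with 22.8% of all UMIs, and 56.7% of those labelled KO with 9.99% of all UMIs. Within them the median level of the 53 genes together was 11973 CPM in WT-labelled cells and 15928 CPM in KO-labelled cells, beside 1516 and 1344 CPM in the other cells. Fewer cells of this kind were found under the KO label. The lowest level among them was 2013 CPM labelled WT and 5987 CPM labelled KO. Since these cells were chosen by the members themselves, their level is a description only and is not compared between the labels. Unthinned, Ccnb1 had a UMI in 29 of the 40 WT-labelled cells and 8 of the 17 labelled KO. Top2a went the other way, with 33 and 17 cells. These were the members with the lowest and the highest ratio, and depth was not equal. The cells with at least 20 members had medians of 103740 UMIs labelled WT and 68863 labelled KO. They were deeper than the others of their label (52747 and 48726). Their S phase list stood at a median of 5252 and 8229 CPM, beside 1467 and 1248 CPM in the other cells, and their HSC list at 831 and 863 CPM, beside 1454 and 1326 CPM.

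Summed markers of other cells also differed between the labels. Of 9 genes of cycling progenitors outside the gate, 4 were in the table (Cd48, Flt3, Prtn3 and Irf8), and their sum was 118 CPM labelled WT and 343 CPM labelled KO. Their summed level per cell ranged from 0 to 1698 CPM labelled WT and from 0 to 2023 CPM labelled KO. In the cells with at least 20 members its median was 5.66 and 191 CPM, lower than in the other cells of the same label (41.3 and 249 CPM). Cd48, which the sort excludes, had a UMI in 2 of the 40 and 1 of the 17 cells with at least 20 members. The erythroid list (7 of 12 genes) was at 1606 and 1265 CPM, the megakaryocyte list (7 of 7) at 1055 and 1159 CPM, and the oocyte list at 2792 and 133 CPM. The part of these cells in the mitotic ratios was not tested beyond the values without oocyte-transcript cells.

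Of 137 further genes of mitosis that are not members, 33 were lower and 15 higher past 1.5 fold, beside the backgrounds of 15.5% and 17.2%. The median was 0.11 for 16 subunits and regulators of the anaphase-promoting complex, of which 7 lay below 0 and 9 above. The median of 15 genes of cohesin and its release was 0.19, but the log2 ratio of their summed UMIs was -0.18, and 0.11 without oocyte-transcript cells. Genes of both lists went far from 0: Sgo1, encoding the cohesin protector shugoshin, was at -1.63 (-1.59 without oocyte-transcript cells), and Fbxo5, encoding the inhibitor Emi1 of the anaphase-promoting complex, was at -0.88 (-0.67). Further kinetochore genes had a median of -0.40, with 9 of 28 lower, and the lowest was Zwilch at -1.37 (-1.75 to -1.01). The regulators of the program had a median of -0.36, with 6 of 16 lower. Mybl2, encoding B-Myb, was at -0.99 on 219 and 83 UMIs, and Foxm1 was at -0.68 on 115 and 54 UMIs but at 0.04 without oocyte-transcript cells.

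Some of the genes named next went further from 0 than any member on the same side, and others were only the lowest or highest of their list. Kif18b, a kinesin that shortens microtubules, had 122 and 7 UMIs, for a log2 ratio of -3.71 (-5.06 to -2.63), and -3.80 without oocyte-transcript cells. Pttg1, encoding securin, had 8597 and 1822 UMIs, and its log2 ratio was -1.83, but 0.24 without oocyte-transcript cells. Kif14, a kinesin of cytokinesis, was the highest at 1.54 (1.19 to 1.89), on 102 and 223 UMIs, 0.96 without the top cells and 1.20 without oocyte-transcript cells. Cdc25a, the phosphatase of S phase entry, was at 0.90 (0.70 to 1.10), in contrast to Cdc25b. In the same list Nek2, a centrosome kinase, was at -1.54. Cenpv, at -2.32, and Rock2, a kinase of the contractile ring, at 1.06, were the extremes of the further cytokinesis genes, and were at -1.20 and 0.84 without oocyte-transcript cells. Anapc15 (-1.15) and Anapc4 (0.69) bounded the anaphase-promoting complex, but Anapc15 was at -0.30 without oocyte-transcript cells, and Ncaph (-0.87) and Ncapd3 (0.34) the other condensin subunits. The highest cohesin gene was Pds5a at 0.82 (0.56 without oocyte-transcript cells), and the highest kinetochore gene Mad1l1 at 0.65. E2f4 (-1.13) and Rbl1 (0.68, or 0.39 without oocyte-transcript cells), both parts of DREAM or its relatives, bounded the regulators.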

How the data were processed

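The authors aligned reads to the mouse transcriptome of build mm9 and counted UMIs per gene, and the deposited values are log2 of the normalized count plus 1; the normalization method was not given in the sources used here. UMI counts were recovered, since within a cell the values without the log2 were whole multiples of 1 step (100% of values above 0, tolerance 0.01). Kept were 493 of 586 cells, 259 of 304 labelled WT and 234 of 282 labelled KO, with at least 2000 genes and 20000 UMIs. Counts were summed per label, and pooled counts under 3 were raised to 3. Ratios and shares have exact Clopper-Pearson intervals of 95%. UMIs of reads shared with near-identical copies (Cks1b and Hmgb2 have some) are uncertain, as how they were counted was not given. No doublet caller was run. Members, gene lists and thresholds were chosen with earlier results of these data known. In each step the text names the lowest and the highest member, the one with the most UMIs, those with an interval above 0 on the log2 scale and those that change direction or cross 1.5 fold without their top cell or without oocyte-transcript cells; Mybl2, Foxm1, Sgo1, Fbxo5 and the members described within single cells were named after their values were seen. The ratio script was tested on simulated data. Python 3.11.15, numpy 2.4.6, pandas 2.3.3 and scipy 1.17.1 were used.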

Additional observations from a re-analysis of the deposited data

How the results depend on the processing

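No direction of the member median turned under any setting tried, and 104 of 161 values were within the limits set for no change. No paired analysis was possible because cells bear no library or replicate number, and for the same reason no library could be left out. TMM and median-of-ratios scaling moved every ratio by -0.03. The median over the members was -0.88 without the top cell of each gene, -1.23 without the top 5 cells and -0.97 without the 2 richest cells of each pool (chosen after seeing the data, as were settings that combine 2 choices, drop Hmgb2 or thin to 10000 UMIs). Leaving out these cells lowered 49, 49 and 46 of the 53 ratios, in this order, so it does not check the direction.

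Without the top cell, medians were -1.11 (entry), -0.18 (condensation), -1.16 (kinetochore), -1.18 (checkpoint), -0.92 (spindle), -1.48 (anaphase-promoting complex) and -0.64 (cytokinesis). Without the top 5 cells they were -1.61, -0.33, -1.39, -2.10, -1.30, -2.23 and -1.11, and -1.37 for the passenger complex. Without the 2 richest cells they were -0.98, -0.25, -1.27, -1.28, -1.10, -1.39 and -0.91. Thinned to 20000 UMIs they were -0.55 (entry), -1.10 (kinetochore), -0.66 (passenger complex) and -0.92 (anaphase-promoting complex). Without oocyte-transcript cells they were -0.21 (condensation), -0.63 (kinetochore), -0.67 (passenger complex) and -0.84 (anaphase-promoting complex). At a limit of 100 CPM of oocyte genes they were -1.03 (entry), -0.31 (condensation), -0.44 (kinetochore), -1.05 (passenger complex), -0.94 (spindle) and -0.80 (anaphase-promoting complex), while Cenpf turned to 0.42, Top2a to -0.22, Ncapd2 to -0.20, Tpx2 to -0.02 and Ckap5 to -0.60. Without both the top cell and oocyte-transcript cells they were -0.24 (condensation) and -0.79 (spindle). The cause of these shifts was not tested beyond the cells left out.

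Lower members numbered 43 without the 2 richest cells (15.8% of all genes) and 14 past 2 fold (7.94% of all genes). Higher members numbered 2 without oocyte-transcript cells (18.8% of all genes). They numbered 2 after thinning, 1 without the top 5 cells and 3 at the limit of 100 CPM. The share of all genes is not given for these last settings, so their counts are not read as a result. The top 5% of cells held 31.6% and 40.1% (WT and KO) of member UMIs at equal depth and 49.9% and 59.8% without Hmgb2. Unthinned, 33.2% of WT-labelled cells had 20 members. The median share of cells with a UMI was 28.2% and 17.1% unthinned, 10.04% and 6.84% with a minimum of 2 UMIs, and 13.9% in WT at 10000 UMIs. Shallow cells limit shares of rare members such as Bub1 and Cdc25c.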
